A study of Homo sapiens with 4 samples.

Results

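HeyC2 is a human ovarian cancer cell line, and the comparison described here set HeyC2 cells transfected with the expression plasmid pCMV6/TET1 (TET1-reprogrammed, "TET1") against HeyC2 cells that received the empty plasmid (control). Both cultures were given 3 μg of plasmid with lipofectamine and were then kept in 400 μg/ml Geneticin, so that transfection and drug selection are shared by both. The comparison holds 2 of the 4 RNA-seq libraries of the series, 1 per condition, and all 26506 genes of the table. The other pair is the same comparison in the SKOV3 line. The labels do not say whether the selected cells were a pool or a single clone, and they name no culture replicate. No difference between TET1 and control could therefore be tested, and no p-value is given.

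TET1 is an enzyme that oxidizes 5-methylcytosine to 5-hydroxymethylcytosine, a step toward the removal of DNA methylation at promoters and enhancers. Gains of TET activity are followed in many cell types by new transcription from silenced genes, but also by changes that do not depend on the enzyme's activity, since TET1 also associates with chromatin complexes. In a growing tumor cell line the RNA pool further reflects how many cells are dividing, which nutrients are short and which growth signals are received.

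The deposited values were FPKM, mapped fragments per kilobase of transcript, scaled to the depth of the library. In the TET1 column every value had been multiplied by 3.23, the constant that sets GAPDH to its control level. The constant was divided out, and all values below are FPKM before this scaling. A log2 change is log2 of (TET1 FPKM + 1) over (control FPKM + 1), which understates the change of genes near 0. It is given, where the transcript length was known, with ± 1 approximate standard error of counting alone on the same scale, estimated from the fragments that each FPKM stood for. From the spacing of the lowest values the control was estimated to hold 7390000 fragments and TET1 6770000. Variation between cultures is not in this error.

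Over the 11896 genes with a mean of at least 1 FPKM the median log2 change was 0.06. A gene was called higher or lower when FPKM + 1 differed at least 1.5-fold. By this rule 1732 genes (14.6%) were higher in TET1 and 882 (7.41%) were lower, while 9282 (78.0%) were neither. These percentages are the background against which the gene lists below are read. At 2-fold, 565 genes were higher and 288 lower, and at 4-fold 88 and 32. On the values as deposited, 12441 genes were higher and 65 lower, with an all-gene median of 1.61, so every direction below refers to the values before the scaling. The spread was far above counting error at high levels: among the 730 genes at 100 FPKM or more, the interquartile range of log2 changes was 0.55 while the median counting error was 0.04. Among the 3331 genes between 1 and 5 FPKM these were 0.68 and 0.18.

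The targeted gene was low in both libraries. TET1 (GRCh37, chromosome 10, 70320094 to 70454244, plus strand) was at 0.20 FPKM in the control, about 13.9 fragments, and at 0.52 FPKM in the TET1 library, about 33.2 fragments. It did not pass the filter of 1 FPKM, and its log2 change was 0.34 ± 0.11. The other TET enzymes and the methyltransferases that write and maintain DNA methylation were called in 1 case. DNMT3B, a de novo methyltransferase, was lower, at 5.52 FPKM in the control and 2.74 FPKM in TET1. TET2 was at 2.36 and 1.79 FPKM, TET3 at 2.83 and 3.01 FPKM and DNMT1, the maintenance enzyme, at 24.51 and 20.61 FPKM, each within the 1.5-fold limit. D2HGDH, which removes the TET inhibitor D-2-hydroxyglutarate, was higher, from 10.34 to 23.23 FPKM. GADD45B, a stress gene linked to active demethylation, was also higher, from 40.56 to 65.38 FPKM. GADD45A, the most abundant gene of this list in the control, was at 126.64 and 102.76 FPKM and was not called. Of the 15 measured TET, DNMT and base excision genes, 2 (13.3%) were higher, against 14.6% of all genes. The share lower was 6.67%, against 7.41%.

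The cell type markers of the 2 libraries were alike in which genes were expressed. Vimentin (VIM), the intermediate filament of mesenchymal cells, and fibronectin (FN1) were among the most abundant mRNAs, whereas the epithelial adhesion genes CDH1 and EPCAM were at or near 0 in both (0 and 0 FPKM for CDH1, 0.09 and 0.38 FPKM for EPCAM). The simple keratins KRT8 and KRT18 were at 475.73 and 377.55 FPKM in the control. Of the ovarian and Müllerian markers, PAX8, a lineage transcription factor, was at 128.11 FPKM in the control and 194.74 FPKM in TET1, and MSLN (mesothelin) at 46.55 and 77.52 FPKM, while WT1 and MUC16 were listed at 0 in both. The 6 blood markers summed to 0.49 FPKM in the control and 0.33 FPKM in TET1. The 7 fibroblast markers summed to 8.57 and 7.61 FPKM, with DCN, LUM, COL3A1 and POSTN at 0 in both. Of the 5 endothelial markers, CDH5 and TIE1 were expressed in both libraries and the defining genes PECAM1, VWF and CLDN5 stayed below 0.5 FPKM.

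**Figure D1:**
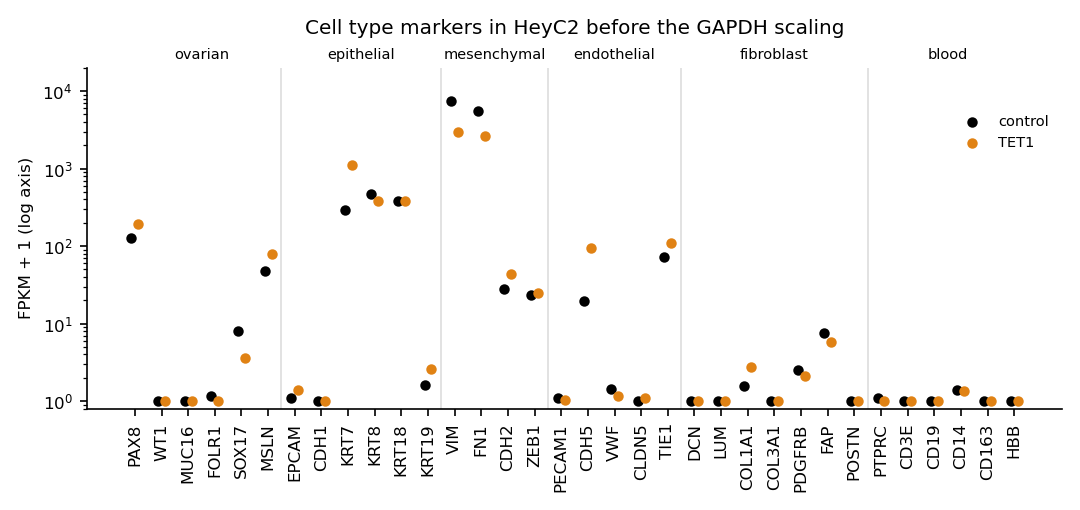
Cell type markers in HeyC2, each drawn as FPKM + 1 before the GAPDH scaling on a log axis, with the control in black and TET1 in orange (1 library each). VIM and FN1 head both libraries and are lower in TET1, KRT7 and CDH5 are higher in TET1, and the blood markers lie on the floor of the axis.

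The largest rises were led by PLVAP, a glycoprotein of the diaphragms of endothelial fenestrae, which went from 0.38 to 83.70 FPKM (log2 change 5.94 ± 0.17). IGFBP2, a secreted binding protein for insulin-like growth factors, went from 0.96 to 111.31 FPKM (5.84 ± 0.25). Both genes rested on few fragments in the control, about 5.94 and 8.79, and on 1198 and 933.7 in TET1. Their promoters are shown because these are the genes that moved furthest from near silence in a comparison built around a demethylating enzyme. The windows run from 250 bases before to 50 bases after the start site (RefSeq, GRCh38.p14), written 5′ to 3′ on the strand of the gene, and the capitals mark each CG dinucleotide, the site of DNA methylation. The IGFBP2 window (chr2:216633170-216633469, plus strand) is 1 of 3 in the table and the one with the most CG sites, 28, and the PLVAP window (chr19:17377293-17377592, minus strand) holds 17. No methylation was measured in the libraries used here.

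IGFBP2: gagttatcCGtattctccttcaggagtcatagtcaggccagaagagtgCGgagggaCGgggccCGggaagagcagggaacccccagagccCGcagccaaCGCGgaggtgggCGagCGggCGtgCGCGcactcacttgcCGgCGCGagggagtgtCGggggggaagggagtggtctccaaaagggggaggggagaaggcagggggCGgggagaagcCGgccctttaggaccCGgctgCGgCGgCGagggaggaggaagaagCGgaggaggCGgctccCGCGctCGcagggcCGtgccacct

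PLVAP: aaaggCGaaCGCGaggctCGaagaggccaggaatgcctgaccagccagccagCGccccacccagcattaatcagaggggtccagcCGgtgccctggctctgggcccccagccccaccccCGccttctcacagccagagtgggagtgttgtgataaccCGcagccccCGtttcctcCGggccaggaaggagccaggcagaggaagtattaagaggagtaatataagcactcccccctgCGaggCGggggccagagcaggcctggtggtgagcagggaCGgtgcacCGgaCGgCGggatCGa

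GDF15, a stress-induced cytokine of the TGF-beta superfamily, rose from 3.92 to 95.01 FPKM (4.29 ± 0.22). The long noncoding RNA UCA1 rose from 1.77 to 44.20 FPKM. GPR4, a proton-sensing receptor best known from endothelium, rose from 0.56 to 24.32 FPKM. Several others encode enzymes of lipid and steroid handling or secreted and surface proteins. CYB5A, cytochrome b5, went from 0.20 to 15.05 FPKM, and HSD11B1, which regenerates active glucocorticoid, from 1.91 to 32.58 FPKM. F3, tissue factor and the trigger of coagulation, went from 17.34 to 183.81 FPKM (3.33 ± 0.09). The protease inhibitor gene SPINT2 went from 2.89 to 34.96 FPKM, and the matrix gene EFEMP1 (fibulin-3) from 0.61 to 13.32 FPKM. LXN, a carboxypeptidase inhibitor, was listed at 0 in the control and at 10.14 FPKM in TET1. FOS, the immediate early transcription factor, went from 12.37 to 138.04 FPKM (3.38 ± 0.11). FAM167B went from 0.51 to 12.59 FPKM and SSC4D from 0.31 to 10.17 FPKM. These are 14 of the 15 largest rises among genes with a mean of at least 5 FPKM, and the remaining one, a sex-linked transcript, is not reported here.

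The 15 largest falls held hair keratin-associated, secreted, amino acid and cell division genes. KRTAP2-3 fell from 54.77 to 4.52 FPKM and its near-identical neighbor KRTAP2-1 from 14.55 to 0.77 FPKM, and how reads were shared between these copies is uncertain. PALM2-AKAP2, a readthrough transcript that overlaps both of its parent genes, fell from 14.06 to 0.71 FPKM and is uncertain for the same reason. SCG5, a neuroendocrine secretory chaperone, fell from 35.82 to 3.30 FPKM. The central complement component C3 fell from 20.35 to 1.66 FPKM. SOX9, a progenitor transcription factor, fell from 20.15 to 1.88 FPKM (-2.88 ± 0.15). VEGFA, the main angiogenic growth factor, fell from 57.39 to 9.19 FPKM (-2.52 ± 0.10). HOMER2, a scaffold protein, fell from 10.77 to 0.74 FPKM, and the transporter gene SLC16A6 from 14.13 to 2.25 FPKM. APOBEC3F, a cytidine deaminase with close paralogs beside it, fell from 16.35 to 2.80 FPKM. PSAT1, ASNS and SLC7A5, all genes of amino acid supply, and KIF20A and HJURP, both of cell division, completed the set and are taken up with their groups.

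**Figure D2:**
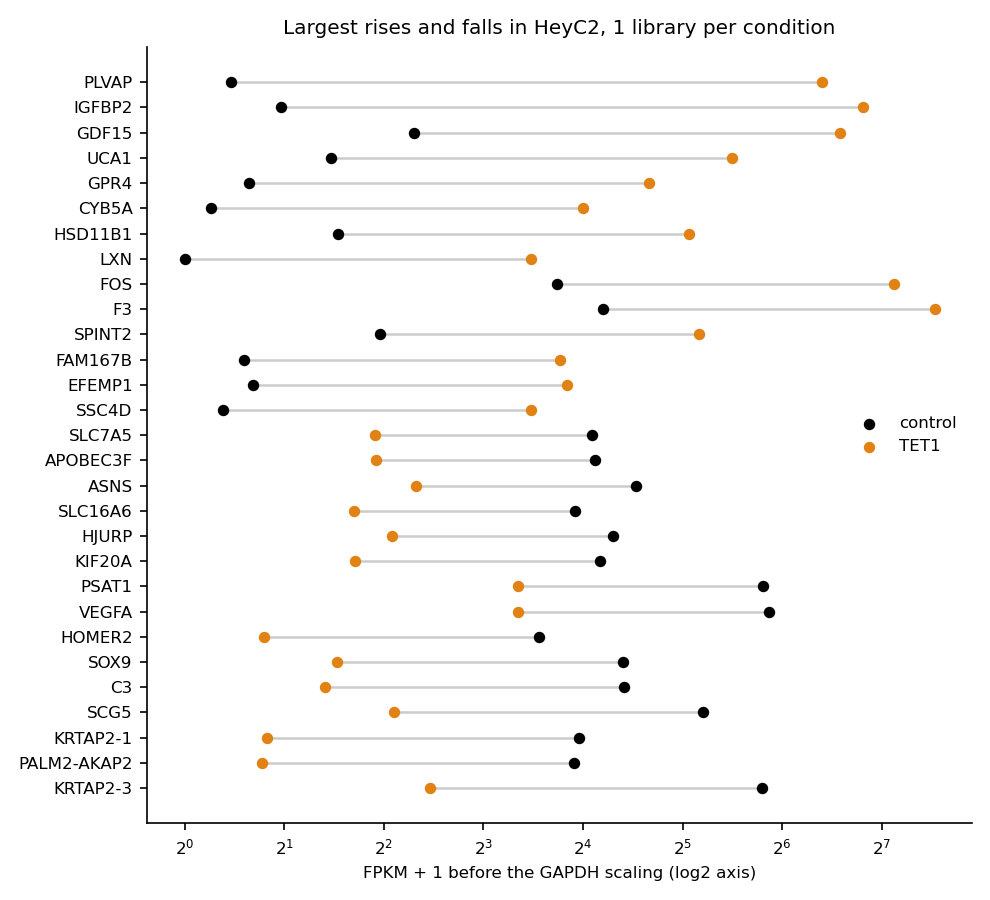
The 14 largest reported rises and the 15 largest falls in HeyC2 among genes with a mean of at least 5 FPKM, drawn as FPKM + 1 on a log2 axis, with the control in black and TET1 in orange (1 library each). Most of the rising genes start near the floor in the control (PLVAP at 0.38 FPKM), whereas FOS and F3 start above 10 FPKM.

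At the other end of the range, 30 genes were at or below 0.1 FPKM in the control and at or above 2 FPKM in TET1, and 12 genes did the reverse. Of the 30, 21 are annotated as protein coding and 7 reached 5 FPKM. Besides LXN they included ABCG1, a cholesterol exporter, listed at 0 and at 5.73 FPKM, and STC1, a secreted glycoprotein induced by hypoxia, listed at 0 and at 4.41 FPKM. CLDN7, an epithelial claudin, was listed at 0 in the control and at 3.53 FPKM in TET1, on about 32.7 fragments. HIST3H2A was listed at 0 and at 9.08 FPKM. In the other direction MMP1, interstitial collagenase, was at 2.26 FPKM in the control and listed at 0 in TET1. An exact 0 in these estimates can also be reads assigned to an overlapping gene, as in PPAN-P2RY11 (0 and 4.80 FPKM) and its parent P2RY11 (2.69 FPKM and 0). Cancer-testis genes, which are commonly kept silent by promoter methylation, stayed at or near 0: of 40 matched, 0 passed the filter, 34 were listed at 0 in TET1 and the highest reached 0.59 FPKM.

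Read as groups, the 53 lists of genes with a median differed widely in their medians. The lowest was mitosis and cytokinesis, followed by ATF4 targets and glycolysis, and the highest of the lists with more than 10 measured members was that of receptor tyrosine kinases and the IGF axis.

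**Figure D3:**
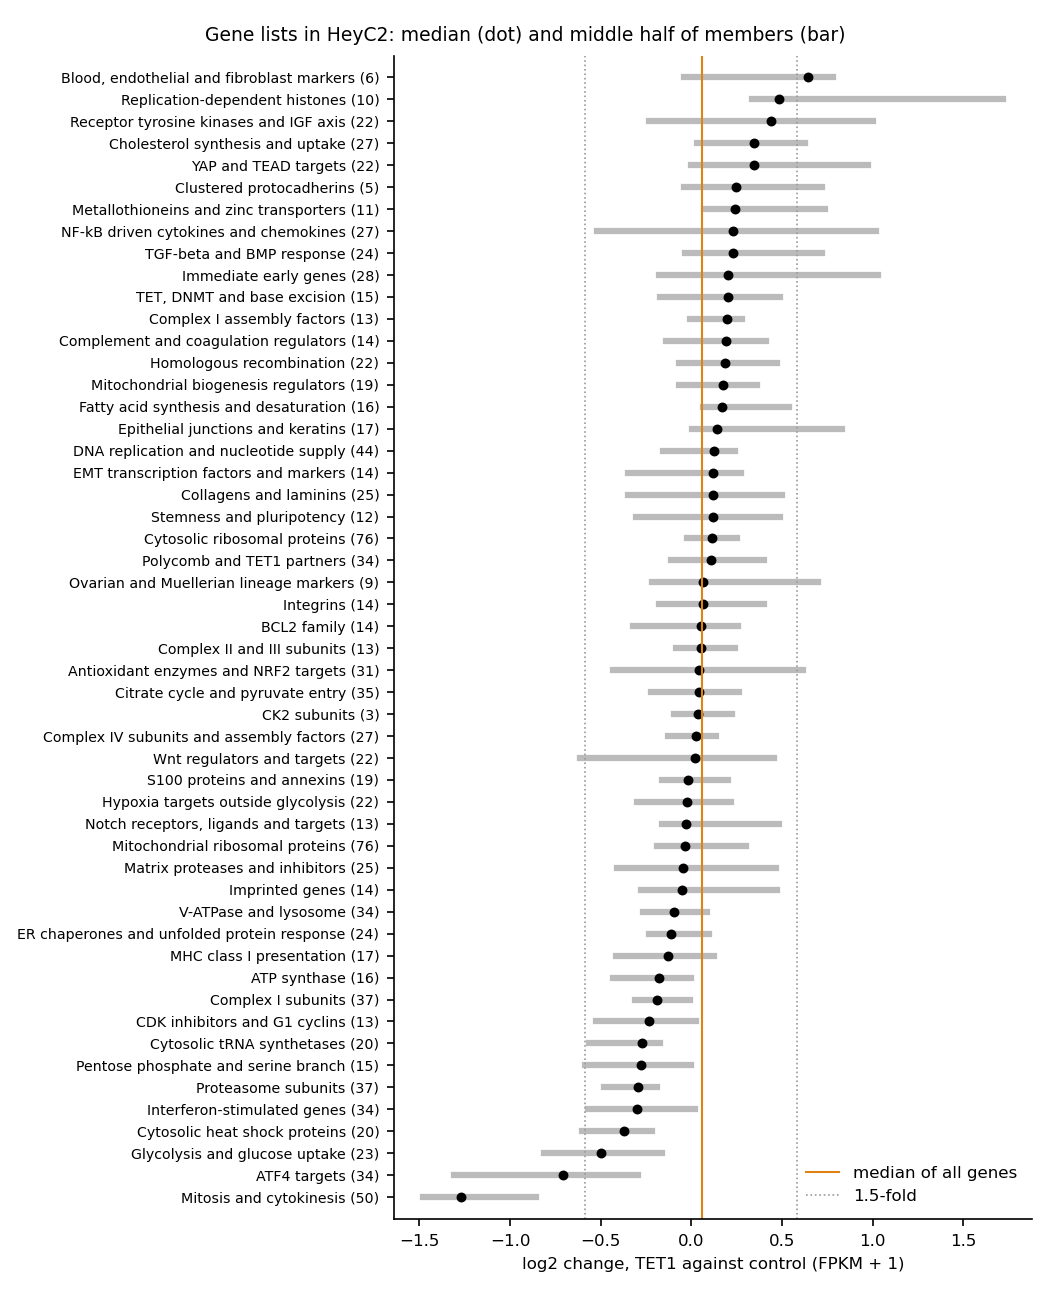
Median log2 change of gene lists in HeyC2 (black dot) with the interquartile range of its members (gray bar), and the number of members past the filter in parentheses. The orange line is the median of all genes (0.06) and the dotted lines are 1.5-fold, and only mitosis and ATF4 targets lie beyond them on the low side.

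Mitotic genes had the lowest median of the lists. Of 50 members, all past the filter, 40 (80.0%) were lower in TET1, against 7.41% of all genes, and 1 was higher. Their median log2 change was -1.27, and 47 of 50 lay below the all-gene median. In bulk RNA, fewer dividing cells and less of these mRNAs per dividing cell cannot be told apart. KIF20A, a kinesin of the central spindle, went from 16.98 to 2.28 FPKM (-2.45 ± 0.17). MKI67, the proliferation marker Ki-67 that coats mitotic chromosomes, went from 12.01 to 2.16 FPKM (-2.04 ± 0.08). DLGAP5, which stabilizes spindle fibers, went from 11.61 to 2.09 FPKM and the chromokinesin gene KIF4A from 9.26 to 1.84 FPKM. The fall ran through regulators, kinesins and kinetochore parts alike. PLK1, the mitotic polo kinase, went from 21.81 to 5.81 FPKM, and CCNB1, cyclin B1, from 49.18 to 15.79 FPKM. FOXM1, a transcription factor of mitotic genes, went from 15.28 to 4 FPKM. It lies on the short arm of chromosome 12, described below, and the part of the arm was not tested. CKS2, the most abundant member in the control, was at 107.06 and 95.63 FPKM and was not called. CDC25B, a phosphatase that activates cyclin-dependent kinases, was the member called higher, from 10.74 to 16.79 FPKM, a call that was lost with the all-gene median subtracted. HJURP, the chaperone that loads the centromeric histone CENPA, went from 18.74 to 3.22 FPKM outside the list.

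Genes that copy DNA did not share this fall. In the list of DNA replication and nucleotide supply, 44 of 47 members passed the filter, 6 were higher (13.6%) and 3 lower (6.82%), close to the background shares, and the median was 0.13. Members called higher were PCNA, the sliding clamp of DNA polymerases (57.11 to 97.33 FPKM), GINS2, a part of the replicative helicase (1.73 to 4.68 FPKM), and E2F1, the S-phase transcription factor (8.71 to 15.02 FPKM). CCNE2 (1.32 to 3.00 FPKM), FEN1 (14.44 to 23.73 FPKM) and RFC4 (18.30 to 28.33 FPKM) were higher as well. Called lower were RRM2, the cell-cycle-controlled subunit of ribonucleotide reductase (15 to 5.90 FPKM), CCNE1, cyclin E1 (3.88 to 1.24 FPKM), and TK1, thymidine kinase (42.58 to 26.80 FPKM). Without the 7 chromosome arms described below, the list's median relative to all genes was -0.15 in place of 0.07. Of the members called higher, at least PCNA (20p) and CCNE2 (8q) lie on these arms, while GINS2, on chromosome 16, does not. The part of the arms in these rises was not tested. Homologous recombination genes had a median of 0.18, with 3 of 22 higher and 2 lower, and relative to all genes they were at 0.13 with and 0.0386 without the 7 arms. RBBP8, which starts the resection of broken ends, was higher (5.51 to 12.30 FPKM) and RAD51AP1, which aids strand pairing, was lower (6.46 to 2.57 FPKM). In SKOV3, where the replication list was at -1.01, mitotic genes were at -0.92. The difference between the lines was not tested.

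**Figure D4:**
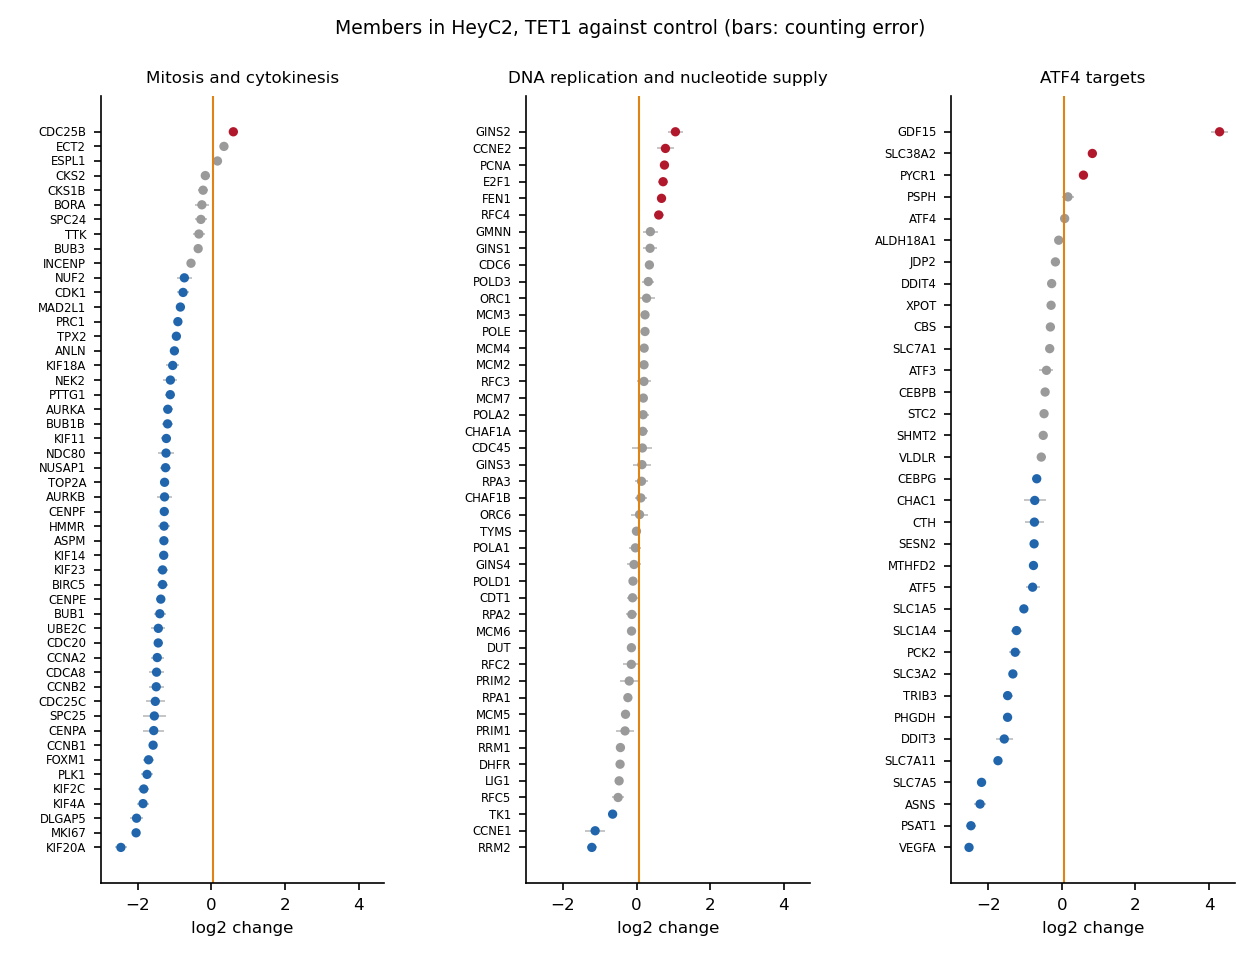
Log2 change of each member past the filter in HeyC2 for mitosis and cytokinesis, DNA replication and nucleotide supply, and ATF4 targets, with red for at least 1.5-fold higher, blue for at least 1.5-fold lower, gray bars for counting error and the orange line for the median of all genes (0.06). Of the mitotic genes 40 of 50 are blue, replication genes scatter about the line with 3 of 44 blue, and of the ATF4 targets GDF15 stands apart on the right.

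The promoters of the mitotic genes shared 2 short sequences known from this gene class, the CHR (TTTGAA), read by the MuvB complexes, and the CCAAT box (CCAAT), read by NF-Y. Both were searched on both strands, and matches that share bases were each counted. A RefSeq window was found for 43 of the 50 measured members. Of these, 32 (74.4%) held the CHR, against 13.3% of 9459 genes past the filter with a window and 15.2% of all 35116 windows. The CCAAT box was in 37 (86.0%), against 43.5% and 34.6%. The CHR was in 26 of the 36 members called and in the other 6 of 7 as well. The window of MKI67 (GRCh38.p14, chr10:128126374-128126673, minus strand) is shown because it carries both, 2 times each, with the matches in capitals (ATTGG is CCAAT read on the other strand). The second CHR starts 29 bases before the start site and runs into the second CCAAT box.

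MKI67: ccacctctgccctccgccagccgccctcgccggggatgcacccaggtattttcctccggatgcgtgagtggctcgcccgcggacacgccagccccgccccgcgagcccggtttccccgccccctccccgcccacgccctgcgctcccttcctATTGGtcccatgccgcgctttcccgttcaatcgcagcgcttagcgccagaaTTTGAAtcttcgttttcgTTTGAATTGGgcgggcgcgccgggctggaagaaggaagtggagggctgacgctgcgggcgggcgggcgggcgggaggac

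Of the 36 replication genes with a window, 10 (27.8%) held the E2F site TTTCCCGC, against 3.32% of genes past the filter and 1.63% of all windows. A second form, TTTGGCGC, was in 8 (22.2%), against 1.41% and 0.652%. Of the 8 called members with a window, 2 held the first form and 1 the second. A match describes these letters and is not evidence of binding.

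Of 13 measured CDK inhibitors and G1 cyclins, which control entry into the cycle, 3 were lower (23.1%, against 7.41% of all genes), all of them inhibitors. CDKN1A (p21), which halts the cycle, went from 397.41 to 211.82 FPKM (-0.90 ± 0.03), and CDKN1B (p27) from 33.57 to 20.80 FPKM (-0.67 ± 0.10). CDKN2C was lower too, from 5.58 to 2.87 FPKM, and 0 of the 13 were called higher. The G1 cyclin gene CCND1 fell from 329.38 to 228.03 FPKM (-0.53 ± 0.02), within the 1.5-fold limit. With the all-gene median subtracted 4 of the 13 were lower, CCND1 among them. With each library scaled to the same total (TPM), 4 were lower as well. CDKN1B is a 12p gene, and genes of that arm had a median log2 change of -0.67. The part of the arm in the fall of CDKN1B was not tested. Replication-dependent histones, whose messages normally lack poly(A) tails, were at a median of 0.48, with 4 of 10 measured genes higher. HIST2H2BE went from 2.70 to 14.36 FPKM and HIST1H2BD from 35.33 to 77.42 FPKM, whereas HIST1H2BC went from 15.50 to 3.85 FPKM. Histone genes are near-identical copies, so single members are uncertain.

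ATF4 is the transcription factor that cells translate when amino acids are short or proteins misfold, and its targets import and make amino acids and charge tRNAs. Of 34 measured targets, 18 (52.9%) were lower, against 7.41% of all genes, and 3 (8.82%) were higher, against 14.6%. The median was -0.71. ATF4 mRNA itself was at 282.54 and 298.48 FPKM, and its activity is set largely at translation, which RNA-seq does not measure. The serine synthesis genes PSAT1 (55.10 to 9.15 FPKM, -2.47 ± 0.13) and PHGDH (81.32 to 28.68 FPKM, -1.47 ± 0.09) were lower. ASNS, asparagine synthetase and a classic target, went from 22.22 to 3.99 FPKM (-2.22 ± 0.17). SLC7A5, the large neutral amino acid transporter, went from 16.02 to 2.76 FPKM, and the cystine transporter gene SLC7A11 from 7.44 to 1.54 FPKM. The stress regulators DDIT3 (CHOP) and TRIB3 went from 25.80 to 8.08 FPKM and from 25.10 to 8.42 FPKM. The 3 members on the high side were GDF15, the glutamine transporter gene SLC38A2 (92.58 to 165.45 FPKM) and PYCR1, of proline synthesis (20.70 to 31.64 FPKM). VEGFA counts here as well as among hypoxia targets.

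The composite element to which ATF4 binds with C/EBP proteins (TGATGNAA, N any base, both strands) was in 9 of the 29 target windows (31.0%), against 2.58% of genes past the filter and 3.62% of all windows, and 6 of the 18 called members with a window held it. The ASNS window with the match (1 of 2, GRCh38.p14, chr7:97872359-97872658, minus strand) is shown because ASNS is among the 15 largest falls and its element is a textbook one. The match, in capitals, starts 68 bases before the start site.

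ASNS: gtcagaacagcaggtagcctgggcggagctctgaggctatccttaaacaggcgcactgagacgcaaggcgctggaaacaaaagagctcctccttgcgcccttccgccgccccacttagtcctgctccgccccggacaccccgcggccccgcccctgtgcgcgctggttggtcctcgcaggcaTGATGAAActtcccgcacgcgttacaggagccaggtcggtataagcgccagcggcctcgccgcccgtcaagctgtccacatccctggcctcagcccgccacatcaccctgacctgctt

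Cytosolic tRNA synthetases, which attach amino acids to tRNAs, were all on the low side: 20 of 20 lay below the all-gene median, at a median of -0.27, with 5 called lower and 0 higher. MARS (51.95 to 25.87 FPKM), YARS (37.89 to 19.74 FPKM), GARS (100.12 to 58.66 FPKM), WARS (54.89 to 33.06 FPKM) and SARS (124.59 to 79.98 FPKM) were the 5. AARS, the most abundant at 172.39 FPKM in the control, was at 149.53 FPKM in TET1. Chaperones of the endoplasmic reticulum and genes of the unfolded protein response were mixed, at a median of -0.11 over 24 genes. PDIA6, a disulfide isomerase, was higher (212.26 to 379.91 FPKM), ERN1, the sensor IRE1, was lower (2.83 to 1.46 FPKM), and the chaperone HSPA5 (BiP) was at 282.68 and 220.91 FPKM. Cytosolic heat shock proteins had a median of -0.37 with 5 of 20 lower and none higher. The inducible chaperones HSPA1A (171.11 to 96.21 FPKM) and HSPA1B (93.76 to 50.23 FPKM), which are near-identical copies, were lower, as were the cochaperone genes HSPB8 (7.15 to 2.49 FPKM), FKBP4 (27.91 to 12.29 FPKM) and BAG3 (68.82 to 40.97 FPKM). Proteasome subunits, at a median of -0.30, were a case of a small and even shift: 32 of 37 lay below the all-gene median but 1 was called lower, PSME2, a subunit of the interferon-inducible activator (101.84 to 58.78 FPKM). With the all-gene median subtracted 4 were lower, and in TPM, with each library scaled to the same total, 7.

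Genes of glucose breakdown were lower. Of 23 measured genes of glycolysis and glucose uptake 10 (43.5%) were lower and 0 higher, against 7.41% and 14.6% of all genes, at a median of -0.50. GAPDH, the scaling gene, was the most abundant, at 5417 FPKM in the control and 1675 FPKM in TET1 (-1.69 ± 0.01). The glucose transporter gene SLC2A3 went from 76.31 to 20.65 FPKM, hexokinase HK2 from 6.41 to 1.53 FPKM and triose phosphate isomerase TPI1 from 728.10 to 258.79 FPKM. Among the others called lower were ALDOA (778.94 to 434.95 FPKM), PGK1 (311.71 to 173.26 FPKM) and PKM (878.20 to 509.39 FPKM). ENO1, enolase, was at 1515 and 1493 FPKM and was not called. Of the 23 genes, 6 lie on the short arm of chromosome 12 (SLC2A3, GAPDH, TPI1, ENO2, LDHB and TIGAR), and the list's median relative to all genes was -0.55 with and -0.44 without them. Of these 6, SLC2A3, GAPDH, TPI1 and TIGAR were called lower, on an arm where 57.1% of genes were lower. In the pentose phosphate and serine branch, at a median of -0.28, 4 of 15 were lower, among them MTHFD2 (62.47 to 36.26 FPKM) and TALDO1 (191.41 to 119.52 FPKM). Hypoxia targets outside glycolysis did not follow, at -0.02 over 22 genes. ADM, adrenomedullin, was higher (36.65 to 79.35 FPKM) and NDRG1 lower (181.83 to 97.49 FPKM).

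Genes of cholesterol synthesis were shifted the other way in their median. Cholesterol genes had a median of 0.34, and 8 of 27 (29.6%) were higher, against 14.6% of all genes, with 0 lower. With the all-gene median subtracted 5 were higher, where 1489 of all 11896 genes were. In TPM 4 of 27 were higher, near the share of all genes, 1945 of 12867. MSMO1, LSS, FDFT1 and DHCR7, enzymes that make squalene or turn it into cholesterol, were higher at 0.65, 0.64, 0.63 and 0.62. TM7SF2, a sterol reductase, went from 4.74 to 17.56 FPKM. MYLIP, a ubiquitin ligase that limits cholesterol uptake, went from 2.66 to 5.33 FPKM. FDPS, the most abundant member, was at 430.67 and 451.79 FPKM and was not called. Outside the 7 arms the list's median relative to all genes was 0.16, against 0.29 with them. Of the fatty acid genes 2 of 16 (12.5%) were higher, below the share of all genes. ELOVL6, an elongase, was higher (9.23 to 19.60 FPKM, 1.01 ± 0.08), as was FASN, fatty acid synthase (91.09 to 150.09 FPKM, 0.71 ± 0.02), and 0 were lower.

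Few mitochondrial genes were called. Subunits of complex I, the entry point of the respiratory chain, had a median of -0.19, with 0 of 37 higher and 2 lower. These were NDUFA9 (57.16 to 21.93 FPKM), on the short arm of chromosome 12, and NDUFA12 (106.90 to 62.85 FPKM), and 30 of 37 lay below the all-gene median. With the median subtracted 5 were lower, and in TPM 6. The 13 complex I assembly factors were at 0.20, with ECSIT higher (20.95 to 33.38 FPKM). The 16 genes of ATP synthase were at -0.18, with ATP5J2 lower (106.81 to 53.64 FPKM). Complexes II and III, with SDHD higher (67.74 to 109.92 FPKM), were at 0.05. Complex IV was at 0.03 over 27 genes, with the copper chaperone gene SCO2 higher (18.71 to 30.07 FPKM) and COX10, of heme A synthesis, lower (6.59 to 3.95 FPKM). Citrate cycle and pyruvate genes were at 0.04. PC, pyruvate carboxylase, was higher (13.94 to 28.23 FPKM) and OGDH, a dehydrogenase of the cycle, was the 1 lower of 35 (55.57 to 34.36 FPKM). Regulators of mitochondrial biogenesis were at 0.18 over 19 genes, with the mitochondrial transcription factor gene TFB2M higher (6.35 to 10.86 FPKM). Mitochondrial ribosomal proteins were at -0.03 over 76 genes. MRPS6 stood apart in that list, from 51.14 to 236.82 FPKM (2.19 ± 0.09), and MRPL51 was lower (149.31 to 70.36 FPKM). Cytosolic ribosomal proteins were at 0.11 over 76 genes with 2 higher and 1 lower. Lysosomal and V-ATPase genes were at -0.10 with 4 of 34 higher and 1 lower, and 25 of 34 lay below the all-gene median. SQSTM1, an autophagy receptor and the most abundant member in the control, was lower (389.37 to 249.57 FPKM). TCIRG1, a proton pump subunit, was higher (35.77 to 86.19 FPKM), as were the cathepsin genes CTSZ (205.78 to 392.92 FPKM) and CTSB (206.36 to 361.96 FPKM). TCIRG1, PC and SDHD lie on 11q, CTSZ on 20q and CTSB on 8p. These arms had raised medians, as described below, and their part in these rises was not tested.

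Antioxidant genes split into opposite sets, at a median of 0.04. Of 31 genes 8 were higher (25.8%) and 7 lower (22.6%), against 14.6% and 7.41% of all genes. Higher were FTH1, ferritin heavy chain (1989 to 6704 FPKM, 1.75 ± 0.01), GPX3, a secreted glutathione peroxidase (43.84 to 187.66 FPKM), and AKR1B1, aldose reductase (141.90 to 645.85 FPKM). GPX1 (499.52 to 1005 FPKM) and SOD2, the mitochondrial superoxide dismutase (61.50 to 115.18 FPKM), were higher as well. Lower were TXNRD1, thioredoxin reductase (167.62 to 64.11 FPKM), NQO1 (52.23 to 26.05 FPKM) and SLC7A11. FTH1 has many processed pseudogenes, and FTL, the ferritin light chain, was at 2479 and 1939 FPKM. Metallothioneins, small metal-binding proteins, were partly higher: MT1E went from 194.33 to 767.97 FPKM and MT1L from 329.99 to 1134 FPKM, and the sharing of reads among these copies is uncertain. MT2A, the most abundant, was at 6812 and 8053 FPKM.

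Interferon-stimulated genes, the antiviral program that also responds to unmasked repeats, were at a median of -0.30, with 8 of 34 (23.5%) lower, against 7.41%, and 3 higher. The OAS enzymes, which sense double-stranded RNA, fell together. OAS1 went from 9.34 to 0.23 FPKM (-3.07 ± 0.24), OAS3 from 5.74 to 0.98 FPKM and OAS2 from 2.33 to 0.42 FPKM. IFI44 (7.37 to 2.75 FPKM), IFIT2 (10.51 to 5.94 FPKM), and ISG15, a ubiquitin-like modifier (46.11 to 27.76 FPKM), were lower too. GBP2, a guanylate-binding protein, was higher (7.90 to 18.10 FPKM), as was IFITM1 (3.90 to 8.93 FPKM). MHC class I presentation had a median of -0.13 over 17 genes, with HLA-E higher (233.15 to 361.19 FPKM) and TAP2, the peptide pump subunit, lower (13.83 to 8.69 FPKM). With the all-gene median subtracted, 0 of the 17 were higher, so the call of HLA-E was lost.

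NF-kB drives inflammatory genes, and here 10 of 27 of its cytokines and chemokines were higher and 5 (18.5%) lower. Higher were PTX3, a soluble pattern receptor (22.22 to 97.80 FPKM), ICAM1 (5.24 to 19.39 FPKM), the inhibitor gene NFKBIA (43.62 to 126.05 FPKM), TNF (6.99 to 17.24 FPKM) and the neutrophil attractants CXCL1 (25.15 to 53.72 FPKM) and CXCL8 (21.71 to 43.13 FPKM). Lower were IL1B, interleukin 1 beta, the most abundant member (1271 to 452.27 FPKM, -1.49 ± 0.03), CSF3 (62.33 to 24.47 FPKM) and IL6 (16.31 to 8.59 FPKM), along with C3. A promoter match to the NF-kB site GGGNNTTCC was in 9 of the 22 members with a window (40.9%), against 10.6% of genes past the filter and 6.58% of all windows. Of the 12 called members with a window, 4 held it.

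Immediate early genes, which switch on within minutes of stimulation without new protein, had 8 of 28 higher (28.6%, against 14.6% of all genes) and 3 lower (10.7%, against 7.41%), at a median of 0.20. Besides FOS, EGR1 went from 2.46 to 19.02 FPKM (2.53 ± 0.16), JUNB from 43.78 to 210.40 FPKM (2.24 ± 0.07) and FOSB from 1.84 to 8.47 FPKM. The phosphatases that turn MAP kinases off moved in opposite directions, with DUSP1 (59.59 to 196.46 FPKM) and DUSP4 (20.80 to 57.16 FPKM) higher and DUSP5 (153.45 to 65.24 FPKM) lower. FOSL1, the most abundant member in the control, was at 259.34 and 370.70 FPKM.

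In the list of receptor tyrosine kinases and the IGF axis, 9 of 22 (40.9%) were higher and 2 (9.09%) lower, at a median of 0.44. The shares of all genes were 14.6% and 7.41%. Of the 9, 5 were secreted IGF-binding proteins and 4 were receptors. Besides IGFBP2, IGFBP3 went from 0.83 to 6.69 FPKM, IGFBP4 from 252.34 to 601.85 FPKM (1.25 ± 0.03), IGFBP6 from 109.46 to 224.74 FPKM and IGFBP7 from 94.98 to 201.78 FPKM. Called receptors included ROR1 (1.63 to 4.49 FPKM), EPHB2 (2.85 to 6.26 FPKM) and FGFR1 (14.55 to 24.94 FPKM) on the high side and the collagen receptor DDR2 (22.68 to 12.94 FPKM) on the low side. EPHA2, the most abundant receptor, was at 265.31 and 346.57 FPKM.

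Targets of YAP and TEAD, which report cell shape and density, had 9 of 22 higher (40.9%, against 14.6% of all genes) and 2 lower (9.09%, against 7.41%). F3 and FJX1 (11.07 to 54.56 FPKM) led, and AMOTL2, a feedback inhibitor of YAP, went from 98.71 to 198.18 FPKM. The classic targets CTGF (568.39 and 662.16 FPKM) and CYR61 (643.78 and 688.05 FPKM) were not called. Of the TGF-beta and BMP response genes, 8 of 24 were higher (33.3%) and 2 lower (8.33%), against 14.6% and 7.41% of all genes. ID1, a BMP target that blocks differentiation factors, went from 40.34 to 225.44 FPKM (2.45 ± 0.10) and ID3 from 5.16 to 12.29 FPKM, whereas the TGF-beta targets SKIL (21.43 to 47.84 FPKM) and PMEPA1 (7.08 to 1.27 FPKM) parted. Among Wnt genes 5 were higher (22.7%) and 6 lower (27.3%) of 22, against 14.6% and 7.41% of all genes. The secreted antagonists SFRP1 (98.06 to 409.75 FPKM, 2.05 ± 0.03) and DKK1 (14.03 to 57.17 FPKM, 1.95 ± 0.12) and the stem cell receptor LGR5 (10.91 to 25.07 FPKM) were higher. The receptors FZD8 (18.44 to 6.11 FPKM) and FZD7 (9.53 to 4.36 FPKM), the ligand WNT5B (297.72 to 152.02 FPKM) and the nuclear effector TCF7 (20.25 to 4.38 FPKM) were lower. In the Notch list the receptor NOTCH4 was higher (4.37 to 21.45 FPKM, 2.06 ± 0.09) and the target HES1 lower (13.46 to 3.54 FPKM).

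Several of the genes with the steepest rises are best known from blood vessel lining, and they were looked at together after their values were seen. PLVAP, GPR4, NOTCH4, CDH5, which encodes VE-cadherin (18.85 to 94.63 FPKM, 2.27 ± 0.07), ENG, the TGF-beta coreceptor endoglin (79.37 to 401.71 FPKM, 2.33 ± 0.04), and TIE1 (70.46 to 107.95 FPKM) were all higher. The call of TIE1 was lost with the all-gene median subtracted. The defining endothelial genes PECAM1 (0.09 and 0.03 FPKM), VWF (0.42 and 0.17 FPKM), CLDN5 (0 and 0.10 FPKM) and KDR (0.25 and 0.55 FPKM) stayed near 0.

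Mesenchymal and epithelial features changed in part. VIM went from 7496 to 2927 FPKM (-1.36 ± 0.01) and FN1 from 5557 to 2619 FPKM (-1.08), while CDH2, N-cadherin, was higher (26.87 to 43.24 FPKM) and the transcription factor ZEB1 was at 22.67 and 23.91 FPKM. KRT7, a simple keratin, went from 289.68 to 1125 FPKM (1.95 ± 0.03), KRT81 from 3.03 to 33.30 FPKM and KRT80 from 12.78 to 37.59 FPKM. The desmosome genes DSP (3.06 to 0.38 FPKM) and PKP2 (5.17 to 1.78 FPKM) were lower. In the ovarian lineage list, 4 of 9 measured genes were higher, SPINT2, MSLN, PAX8 and MECOM (6.17 to 10.62 FPKM), and SOX17 was lower (7.01 to 2.64 FPKM). With the all-gene median subtracted 3 were higher and 2 lower, and the call of PAX8 was lost. Pluripotency factors stayed low, with POU5F1 at 0 and 0.47 FPKM and SOX2 at 0 and 0.13 FPKM. Of the stem cell markers used in ovarian cancer, ALDH1A3, a retinal dehydrogenase (642.17 to 244.29 FPKM, -1.39 ± 0.02), and the hyaluronan receptor CD44 (382.69 to 207.26 FPKM) were lower, and TERT, the catalytic subunit of telomerase, was higher (1.45 to 5.33 FPKM).

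At the cell surface and in the matrix, ITGB3, integrin beta 3, went from 99.00 to 310.90 FPKM (1.64 ± 0.03) and ITGA6 from 112.88 to 63.94 FPKM (-0.81 ± 0.04). Basement membrane and anchoring components COL18A1 (5.11 to 24.61 FPKM), NID2 (1.22 to 7.67 FPKM) and COL7A1 (1.06 to 6.90 FPKM) were higher, and the fibrillar collagen COL5A2 was lower (15.12 to 4.99 FPKM). The protease inhibitors TIMP1 (105.75 to 194.51 FPKM) and TIMP3 (0.13 to 2.58 FPKM) were higher, whereas MMP14, the membrane-bound protease (457.41 to 262.27 FPKM), and PLAUR, the urokinase receptor (109.60 to 53.04 FPKM), were lower. PLAU, urokinase, was the most abundant member, at 1920 and 2752 FPKM. Of the S100 calcium-binding proteins, S100A1 (23.74 to 154.05 FPKM, 2.65 ± 0.18), S100A4 (2.61 to 16.02 FPKM) and S100A3 (5.63 to 16.15 FPKM) were higher. Among survival genes, MCL1 was lower (208.31 to 107.66 FPKM, -0.95 ± 0.03) and BCL2L1, which encodes BCL-XL, was higher (186.06 to 283.42 FPKM, 0.60 ± 0.03). The call of BCL2L1 was lost with the all-gene median subtracted, in TPM and with upper-quartile scaling.

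Several lists that touch on methylation and on the kinase CK2 held few called genes. The subunits of protein kinase CK2 were at 30.38 and 40.71 FPKM for CSNK2A1, 23.56 and 19.92 FPKM for CSNK2A2 and 85.90 and 88.09 FPKM for CSNK2B, and none was called. Polycomb genes and TET1 partners had 2 of 34 higher and 2 lower. SUZ12, a core subunit of PRC2, was higher (5.91 to 10.29 FPKM), as was OGT, the O-GlcNAc transferase that binds TET proteins (59.36 to 93.65 FPKM), and the PRC1 subunits CBX6 (18.59 to 10.10 FPKM) and CBX8 (9.60 to 5.47 FPKM) were lower. Imprinted genes, which are expressed from 1 parental allele by methylation, were at -0.05 over 14 genes. SNRPN (20.24 to 53.47 FPKM, 1.36 ± 0.12) and the overlapping SNURF (22.44 to 56.48 FPKM), which share reads, were higher and COPG2 was lower (11.84 to 5.77 FPKM). Of 27 clustered protocadherins, 5 passed the filter, with PCDHB9 (0.59 to 2.22 FPKM) and PCDHB14 (1.61 to 3.30 FPKM) higher and PCDHB10 lower (2.48 to 1.14 FPKM).

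Position in the genome went with part of the change. Of 40 chromosome arms with at least 50 genes past the filter, 33 had a median within 0.1 of that of all genes, and 7 stood apart. The short arm of chromosome 12 was at -0.72 relative to all genes over 154 genes, of which 88 were lower and 5 higher. These 88 are 9.98% of all lower calls. The shift ran through the arm, at -0.79 over 74 genes in the first 10 Mb, -0.83 over 34 in the second and -0.79 over 31 in the third, and was -0.22 over 15 genes from 30 Mb on. NCAPD2, a condensin subunit (12, 6602522 to 6641121), was the lowest, from 55.94 to 12.71 FPKM (-2.05 ± 0.07). FOXM1, RAD51AP1, FKBP4, WNT5B, MRPL51 and PKP2, called lower in their groups above, lie on the short arm as well. The long arm was at -0.05 over 475 genes.

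The other 6 arms lay above the rest, between 0.22 and 0.41. They were 20p at 0.41 over 102 genes, 8p at 0.37 over 134, 11q at 0.31 over 455, 8q at 0.24 over 274, 3q at 0.23 over 359 and 20q at 0.22 over 222. On 8p 52 genes were higher and 0 lower, and on 20p 41 and 3. Within 3q the shift was uneven: from 100 to 130 Mb the medians were -0.04, -0.04 and -0.12, and from 130 Mb on they were between 0.25 and 0.58. On 11q the medians were between 0.21 and 0.44 from 60 to 130 Mb. Together the 6 arms held 1546 of the 11896 genes past the filter and 26.8% of the higher calls (464 genes), with 47 of the lower calls. Outside all 7 arms, 11.9% of 9918 genes were higher and 7.34% lower, and the medians of mitotic genes and ATF4 targets relative to all genes were -1.33 and -0.74. No DNA copy number was measured in these libraries, and the part of the arms in any single gene's change was not tested.

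**Figure D5:**
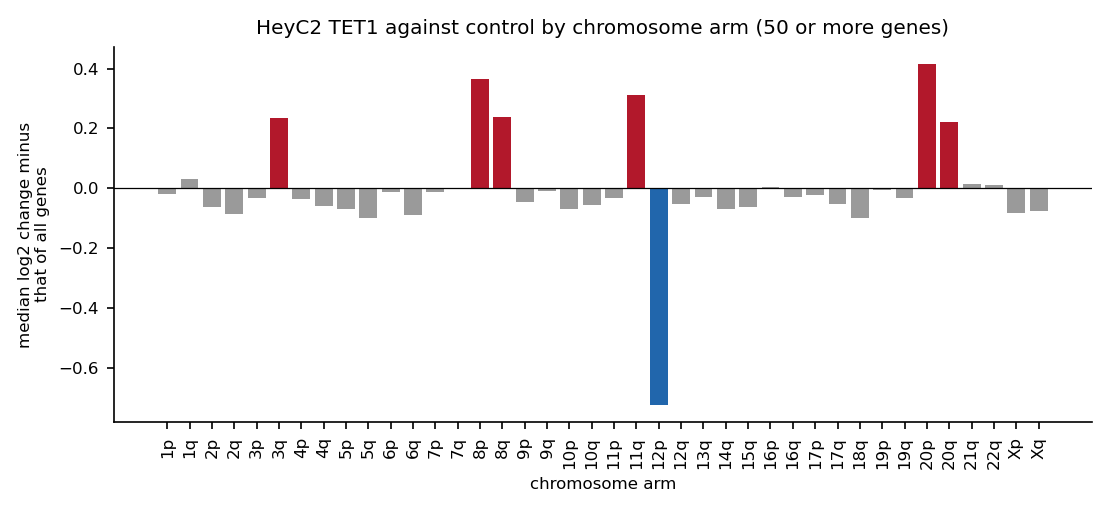
Median log2 change of the genes on each chromosome arm in HeyC2 minus that of all genes, for the 40 arms with at least 50 genes past the filter (1 library per condition). Red bars mark the 6 arms at least 0.2 above all genes and the blue bar marks the short arm of chromosome 12, at -0.72.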

How the data were processed

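The authors prepared TruSeq libraries from total RNA, sequenced them paired-end (2 × 150 bp) on a HiSeq-4000, aligned reads to hg19 with Bowtie2 (2.2.6) and quantified genes with RSEM (1.2.17), as named in the submitters' processing notes. The deposited values were FPKM by gene symbol, 1 table per cell line. The gene annotation and read totals are not given in the sources used here. The FPKM of the TET1 library lay on multiples of 0.01 times 3.23 (100% of 1220 distinct values below 40 FPKM), a scaling to GAPDH that no source names, and were divided by that constant and rounded to 0.01. The HeyC2 table was used, and SKOV3 only where named.

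Log2 changes used a pseudocount of 1 and a mean of at least 1 FPKM over both libraries. A 1.5-fold difference was the call. Coordinates and lengths came from GENCODE v44lift37 on GRCh37, the build of hg19, by symbol (23921 of 26506 symbols, 90.2%). For depth, the library size was sought that turns low FPKM of genes with 1 transcript into whole fragments, with transcript lengths shortened by 175 bases, and counting errors assume the length of 1 transcript per gene. Arms were split at the longest unsequenced stretch of each chromosome. Promoter windows came from RefSeq, and searches for the sterol and interferon elements are not reported because under 80% of those lists had a window.

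The members, gene lists and tests were chosen with earlier results of these data known. Genes were named by a rule: TET1, the 15 largest rises and falls with a mean of at least 5 FPKM, the 4 largest changes and most abundant gene of each list, and genes whose promoters are shown. Other genes were named after their values were seen, and some genes are not reported here. Alternatives were FPKM as deposited, median subtraction, TPM, upper-quartile scaling, a pseudocount of 0.1, no filter, a mean of at least 5 FPKM, a 2-fold call, leaving out chromosome 12p and, chosen after the data were examined, leaving out 7 arms. On simulated tables of 23921 genes (3 runs, 200 changed genes each) all 200 changed genes were called, and constant and depth were recovered within 0.154%. Python 3.11.15, numpy 2.4.6, pandas 2.3.3 and matplotlib 3.10.9 were used.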

Additional observations from a re-analysis of the deposited data

Results flagged for a closer look

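The same contrast exists in SKOV3, and results were singled out where the log2 change, before the GAPDH scaling, had opposite signs in HeyC2 and in SKOV3. As each condition has 1 library, no difference between the lines was tested. Of the gene lists, the median of ATF4 targets was -0.71 in HeyC2 and 1.22 in SKOV3, a difference of -1.93. Other lists also had medians of opposite sign, with smaller differences. Among them were NF-kB genes (0.23 in HeyC2 and -1.02 in SKOV3), DNA replication (0.13 and -1.01) and interferon-stimulated genes (-0.30 and 0.63). Of the 268 named genes, 19 changed at least 2-fold on the FPKM + 1 scale in both lines and in opposite directions. Of these, 12 were higher in HeyC2 and 7 lower. The named genes were chosen largely by the size of their HeyC2 change, and the share over all genes was not computed. Named genes that changed at least 2-fold in the same direction in both lines were not counted. They include IGFBP2, GDF15, C3, KIF20A and HJURP. The 19 therefore do not show how often the lines differed in direction.

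Higher in HeyC2 TET1 and lower in SKOV3 TET1 were UCA1 4.03 against -4.61 (difference 8.63), KRT7 1.95 against -6.07 (difference 8.02), F3 3.33 against -2.80 (difference 6.14), DKK1 1.95 against -3.20 (difference 5.16), ID1 2.45 against -1.87 (difference 4.33), ID3 1.11 against -3.07 (difference 4.18), ADM 1.09 against -2.75 (difference 3.84), ANKRD1 1.47 against -2.01 (difference 3.48), NID2 1.97 against -1.29 (difference 3.26), S100A3 1.37 against -1.14 (difference 2.51), ANXA3 1.14 against -1.08 (difference 2.22), GINS2 1.06 against -1.15 (difference 2.21).

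Lower in HeyC2 TET1 and higher in SKOV3 TET1 were PHGDH -1.47 against 1.58 (difference -3.05), APOBEC3F -2.19 against 1.35 (difference -3.54), VEGFA -2.52 against 1.02 (difference -3.54), PSAT1 -2.47 against 1.38 (difference -3.84), PMEPA1 -1.83 against 2.28 (difference -4.11), OAS1 -3.07 against 1.36 (difference -4.44), ASNS -2.22 against 2.65 (difference -4.86).

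PSAT1, ASNS, PHGDH and VEGFA belong to the ATF4 list, so their differences and that of the list's median are not separate. F3, ANKRD1, ID1 and ID3 are targets of the YAP or BMP pathways, and UCA1 is a noncoding RNA. In HeyC2, ANKRD1 rested on about 0.835 fragments in the control and 21.4 in TET1 (1.47 ± 0.25, counting error), and OAS1 on about 100.5 and 2.27 (-3.07 ± 0.24).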

How the results depend on the processing

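No paired analysis was possible because each condition has 1 library, and for the same reason no library could be left out. On the FPKM as deposited, 12441 genes were higher and 65 lower. TPM gave 1945 and 1397, a mean of at least 5 FPKM 1116 and 565, and the 2-fold call 565 and 288. All other settings kept both counts within 1.5 times. Of the 53 list medians relative to all genes, none that was beyond 1.5-fold turned its direction, and subtraction of the all-gene median and a pseudocount of 0.1 moved none by over 0.2. Medians that moved by over 0.2 were homologous recombination at 0.46 with a mean of at least 5 FPKM, histones at 0.68 as deposited and 0.77 in TPM, ATF4 targets at -0.56 and the receptor and IGF list at 0.0716 without a filter, the blood, endothelial and fibroblast list at 0 without a filter, protocadherins at 0.43 in TPM, and the ovarian lineage list at 0.28 in TPM and with the upper quartile, 0.65 with a mean of at least 5 FPKM and 0.27 without 12p and without 7 arms. In TPM 12 of 38 interferon-stimulated and 8 of 27 NF-kB genes were lower, in place of 8 of 34 and 5 of 27. Of all genes in TPM 1397 of 12867 were lower. Leaving out 7 arms also gave -0.15 for DNA replication, -0.34 for the BCL2 family and -0.0803 for complement and coagulation. Of 268 named genes, 52 called lower turned positive on the FPKM as deposited and in no other setting. Their log2 changes as deposited were DNMT3B 0.60, RRM2 0.33, CCNE1 0.0379, RAD51AP1 0.32, FANCG 0.58, CDKN1A 0.78, CDKN2C 0.64, CDKN1B 0.98, SESN2 0.85, MARS 0.68, YARS 0.74, GARS 0.92, WARS 0.95, ERN1 0.58, SEL1L 1.02, HSPB8 0.15, FKBP4 0.50, HSPA1B 0.79, HSPA1A 0.86, TPI1 0.20, PHGDH 0.19, MTHFD2 0.90, NDUFA9 0.31, NDUFA12 0.92, COX10 0.86, ATP5J2 0.69, SQSTM1 1.05, RPL21 0.24, MRPL51 0.60, MRPS35 0.90, PSME2 0.89, NDRG1 0.79, IFI44 0.24, TAPBPL 0.30, TAP2 0.97, IL1B 0.20, FZD8 0.0948, WNT5B 0.72, VIM 0.34, FN1 0.61, MMP14 0.89, SOX17 0.25, ALDH1A3 0.30, COL5A2 0.0885, PLAUR 0.64, SERPINB2 0.30, ITGA6 0.87, MCL1 0.74, CBX6 0.78, CBX8 0.82, PCDHB10 0.43, COPG2 0.61. Of the 268, the log2 change moved by more than its counting error in 75 with the all-gene median subtracted, 141 in TPM, 82 with a pseudocount of 0.1 and 50 with the upper quartile, where 5, 4, 0 and 4 calls were lost and 8, 10, 10 and 4 gained. The cause of these 52 turns is the constant by which the deposited column was multiplied, and the cause of the other shifts was not tested. Depth limits low genes most, with a median counting error of the log2 change of 0.18 between 1 and 5 FPKM.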
